A study of Mus musculus with 10 samples.

Results

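The 10 genes described here are Prg4, Has1, Has2, Tppp3, Pi16, Dpt, Clec3b, Pdgfra, Thy1 and Cd55. They are known as markers of the cells that line the joint cavity and of fibroblasts at tissue surfaces. Which cells carried them here was not tested, and Pi16, Thy1 and Cd55 passed in no correlation with the others. The genes were measured in the medial knee cartilage caps of wild-type mice and of mice null for the microRNA gene Mir324. The set was chosen from 35705 genes of the table on results of these same libraries, namely transcript level, spread between mice and difference between genotypes. Those values are therefore given as a description, with no p-value for any of the 10 genes. Of the 10 genes, 9 had a mean of at least 1 TPM, an abundance per transcript length scaled to a library total of 1000000. Has2 did not reach it.

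RNA was sequenced from 5 wild-type and 5 null mice, with 1 library from the tissue of each mouse. Tissue is labelled articular cartilage and cell type chondrocyte in both groups, and no treatment was given. The null allele is labelled by genotype only, and how it was made, the promoter or cell type it acts in, and the age, sex, litter and batch of the mice are not given in the labels. Values of the targeted microRNA were not analysed here, so the genotype labels have no check of their own.

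A synovial joint is lined by a thin layer of fibroblasts that face the cavity. These cells and the outermost chondrocytes of articular cartilage secrete lubricin, the boundary lubricant encoded by Prg4, and the lining cells also extrude hyaluronan, the polysaccharide that makes joint fluid viscous. Behind the lining lies loose connective tissue with THY1-bearing fibroblasts around vessels, and adventitial fibroblasts that carry PI16 and dermatopontin occur in many organs. A cartilage cap removed from the knee can hold margins of synovium, tendon insertion, bone and marrow along with cartilage.

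The deleted gene gives rise to a pair of mature microRNAs, and their sequences are shown because each one's seed sets which transcripts it can pair with. RefSeq places them on chromosome 11 of build GRCm38.p6, on the plus strand, at chr11:70012060-70012082 for the 5p strand and chr11:70012095-70012114 for the 3p strand. The seed, bases 2 to 8 from the 5′ end, is in capitals.
miR-324-5p: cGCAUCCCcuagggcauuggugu
miR-324-3p: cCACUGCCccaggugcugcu
The seeds differ, so the strands pair with different sites. The complement of the 5p seed is GGGATGC and that of the 3p seed is GGCAGTG. Neither was found in the longest annotated 3′ UTR of any of the 10 genes, which ranged from 285 bases for Clec3b to 3115 bases for Pdgfra. For Prg4 this UTR belongs to a transcript listed at 0 TPM in every mouse. For Pi16 it belongs to a transcript that held 4.98% of Pi16 TPM in wild-type and 5.04% in null. UTRs of other transcripts were not searched. Among 12615 genes with an annotated 3′ UTR, 9.39% held the first site and 17.4% held the second. This says only that these letters are not in these windows.

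The libraries were mixed in tissue content and 1 stood apart. Haemoglobin genes took 11.2% to 19.7% of the wild-type libraries and 15.8% to 26.1% of the null ones. The chondrocyte markers Col2a1 (91.4 ± 31.9 TPM in wild-type, 59.0 ± 24.1 in null, SD, n = 5 each) and Acan (146 ± 83.4 and 72.0 ± 8.82) were present, while Matn3 and Col9a1 averaged under 1 TPM. The neutrophil gene S100a9 averaged 31565 ± 9053 TPM in wild-type and 28612 ± 8002 in null. On the first principal component, which held 26.7% of the variance, wild-type replicate 1 lay at -54.8, the other 4 wild-type mice ranged from -9.22 to 8.25, and null mice from -12.1 to 30.1. Results are therefore also given without wild-type replicate 1. Sequencing depth is unknown, since TPM keeps no read counts. In bulk tissue, fewer cells of a type and less RNA per cell cannot be told apart.

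Lubricin was the most abundant of these transcripts by a wide margin. Prg4 (ENSMUSG00000006014, chr1:150449412-150466165, minus strand) stood at 5075, 1980.0, 1564, 3821 and 2068 TPM in wild-type replicates 1 to 5 and at 1551, 1476, 2319, 2007 and 1335 TPM in null replicates 1 to 5. Wild-type replicates 1 and 4 were above every null mouse, and the other 3 wild-type mice lay within the null range, so the groups overlapped. Among all genes of a library, Prg4 ranked between 17 and 89 in abundance. The mean was 2902 ± 1492 TPM in wild-type and 1737 ± 411 in null (SD, n = 5 each), and all 5 null mice were under the wild-type mean on the log scale. The null minus wild-type difference in log2(TPM + 1) was -0.63 (SE 0.298), and it was -0.39 (SE 0.244) without wild-type replicate 1. A pair of transcripts made up most of the level. The 13-exon transcript of 3821 bases held 60.4% ± 6.1 of Prg4 TPM in wild-type and 57.7% ± 5.1 in null, and the 12-exon transcript of 1480 bases held 33.6% ± 6.2 and 35.6% ± 4.8. The gene overlaps Tpr on the opposite strand, and whether quantification used strand is not given in the sources used here.

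The enzymes that make hyaluronan were near the lower limit of the table. Has1 (ENSMUSG00000003665, chr17:17843323-17855205, minus strand), a hyaluronan synthase of the plasma membrane, stood at 2.42, 0.503, 0.201, 1.91 and 0.392 TPM in wild-type replicates 1 to 5 and at 1.37, 3.12, 4.67, 1.48 and 0.721 in null replicates 1 to 5. In wild-type, replicates 1 and 4 were high and the other 3 low, while null replicates 2 and 3 were the highest of all mice, and the groups overlapped. Means were 1.09 ± 1.01 TPM in wild-type and 2.27 ± 1.60 in null, a difference of 0.65 on the log2 scale (SE 0.378), or 0.86 (SE 0.368) without wild-type replicate 1. The pseudocount of 1 TPM compresses changes at this level, and with a pseudocount of 0.1 TPM the difference was 1.20. Has2 (ENSMUSG00000022367, chr15:56665627-56694539, minus strand), the synthase needed for heart cushion formation in the embryo, stood at 1.06, 0.728, 0.698, 0.780 and 0.669 TPM in wild-type and at 0.932, 0.512, 0.742, 0.789 and 0.695 in null replicates 1 to 5. Its groups overlapped over most of their range, with a log2 difference of -0.04. Has3, the remaining member of the synthase family, did not exceed 0.212 TPM in any mouse. The Has2 locus overlaps Has2os on the opposite strand.

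Tppp3 and the adventitial genes Dpt and Clec3b had the widest spread between mice as an SD of log2(TPM + 1), while by the ratio of highest to lowest mouse Has1 (23.2) exceeded Tppp3 (8.10). Tppp3 (ENSMUSG00000014846, chr8:105467493-105471526, minus strand) encodes a tubulin-binding protein and marks cells of the tendon sheath and synovium. Tppp3 stood at 36.2, 12.3, 8.62, 19.9 and 6.63 TPM in wild-type replicates 1 to 5 and at 15.6, 41.6, 53.7, 13.5 and 10.7 in null replicates 1 to 5. Wild-type replicate 1 and null replicates 2 and 3 were high and the groups overlapped widely. Its means were 16.7 ± 12.03 TPM in wild-type and 27.0 ± 19.4 in null, a log2 difference of 0.62 (SE 0.507), or 0.95 (SE 0.473) without wild-type replicate 1.

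Dpt (ENSMUSG00000026574, chr1:164796644-164824266, plus strand) encodes dermatopontin, a matrix protein that binds decorin and collagen fibrils. Dpt stood at 11.8, 3.70, 1.997, 16.3 and 0.576 TPM in wild-type and at 9.24, 16.1, 26.6, 8.62 and 2.98 TPM in null replicates 1 to 5. Its lowest and highest mice, wild-type replicate 5 and null replicate 3, differed 46.3-fold, the widest ratio among the 10 genes. Means were 6.87 ± 6.83 TPM in wild-type and 12.7 ± 9.06 in null, and the log2 difference was 1.05 (SE 0.665), or 1.35 (SE 0.680) without wild-type replicate 1. Clec3b (ENSMUSG00000025784, chr9:123150946-123157432, plus strand) encodes tetranectin, a plasminogen-binding lectin secreted by connective tissue cells. Clec3b stood at 15.3, 1.503, 1.73, 4.57 and 0.852 TPM in wild-type and at 8.28, 16.5, 20.97, 1.27 and 6.07 in null replicates 1 to 5. In wild-type a single mouse, replicate 1, was far above the others, and in null replicate 4 was far below the others. Its means were 4.80 ± 6.06 TPM in wild-type and 10.6 ± 7.98 in null, with a log2 difference of 1.13 (SE 0.674). Without wild-type replicate 1 it was 1.63 (SE 0.589). Dpt overlaps the antisense gene Gm32569.

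Pi16, also known from adventitial fibroblasts, was more even than Dpt and Clec3b. Between mice it did not follow the other adventitial fibroblast genes (r = 0.04, given below), and which cells carried it was not tested. Pi16 (ENSMUSG00000024011, chr17:29317680-29330593, plus strand) encodes a surface peptidase inhibitor. Pi16 stood at 27.4, 45.3, 29.2, 29.8 and 54.2 TPM in wild-type and at 54.6, 57.6, 46.9, 35.7 and 31.7 TPM in null replicates 1 to 5. Both groups held mice near 30 and mice above 50 TPM. The means were 37.2 ± 11.9 TPM in wild-type and 45.3 ± 11.4 in null, a log2 difference of 0.29 (SE 0.220), or 0.20 (SE 0.227) without wild-type replicate 1. A retained-intron transcript held 35.5% ± 3.0 of Pi16 TPM in wild-type and 36.3% ± 3.2 in null, and the gene overlaps an antisense gene.

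The 3 surface proteins had moderate levels. Pdgfra (ENSMUSG00000029231, chr5:75152292-75198215, plus strand) encodes the receptor for PDGF ligands that marks fibroblasts and mesenchymal progenitors in general. Pdgfra stood at 14.4, 9.27, 10.4, 12.6 and 9.45 TPM in wild-type and at 6.74, 10.3, 12.8, 7.20 and 5.23 in null replicates 1 to 5. Null replicates 1, 4 and 5 were under every wild-type mouse and null replicates 2 and 3 were within the wild-type range. Its means were 11.2 ± 2.22 TPM in wild-type and 8.45 ± 3.04 in null, a log2 difference of -0.41 (SE 0.211), or -0.32 (SE 0.217) without wild-type replicate 1. Pdgfra overlaps Gm42802, Gm42803 and Mir7025.

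Thy1 (ENSMUSG00000032011, chr9:44043384-44048579, plus strand) encodes a lipid-anchored glycoprotein of sublining fibroblasts that mouse T cells also carry. Thy1 stood at 26.7, 19.3, 18.3, 11.5 and 11.01 TPM in wild-type and at 15.9, 20.4, 24.3, 15.9 and 17.1 TPM in null replicates 1 to 5. Every null mouse lay within the wild-type range. Means were 17.4 ± 6.46 TPM in wild-type and 18.7 ± 3.60 in null, and the log2 difference was 0.16 (SE 0.223). That value was 0.32 (SE 0.193) without wild-type replicate 1, and leaving out replicate 5 of that group gave 0.02. A transcript annotated as not coding for protein held 32.0% ± 7.1 of Thy1 TPM in wild-type and 32.9% ± 14.1 in null.

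Cd55 (ENSMUSG00000026399, chr1:130439027-130462744, minus strand) encodes decay-accelerating factor, which removes complement convertases from the cell surface and marks lining fibroblasts, and many blood cells carry it too. Cd55 stood at 15.1, 24.9, 22.4, 18.4 and 19.1 TPM in wild-type and at 20.5, 26.5, 27.5, 27.1 and 21.8 in null replicates 1 to 5. All 5 null mice were above the wild-type mean, yet replicates 1 and 5 of them were under the highest 2 wild-type mice, so the groups overlapped. The means were 20.0 ± 3.79 TPM in wild-type and 24.7 ± 3.28 in null, with a log2 difference of 0.30 (SE 0.141) that was 0.21 (SE 0.129) without wild-type replicate 1. Retained-intron transcripts held 20.4% ± 3.0 of Cd55 TPM in wild-type and 21.7% ± 6.7 in null. Its near copy Cd55b was listed at 0 to 1.27 TPM, and the split of reads between the copies is uncertain.

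**Figure D1:**
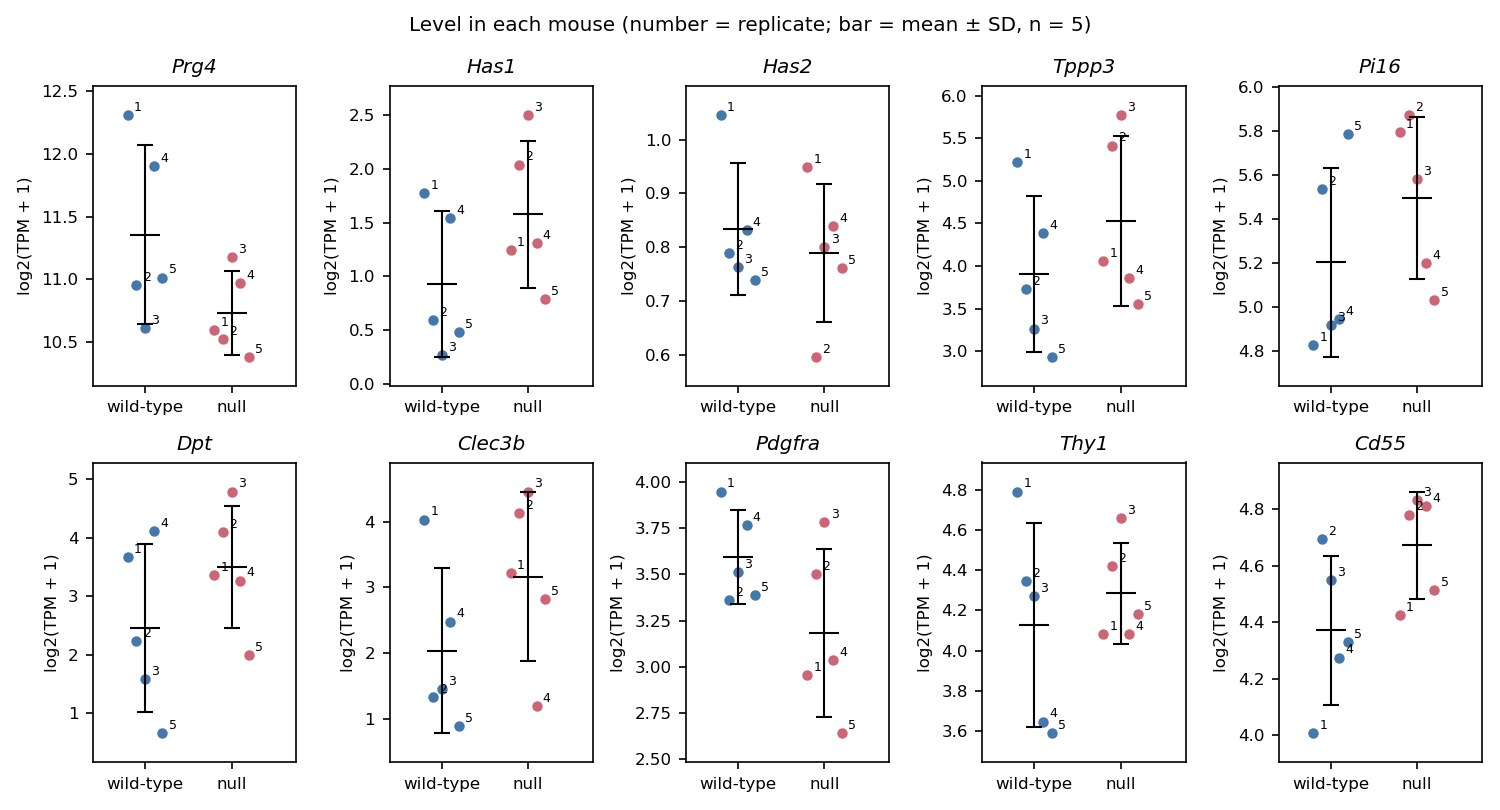
Level of each of the 10 genes on the log2(TPM + 1) scale in wild-type (blue) and null (red) mice, with each axis on its own range. Points are single mice numbered by replicate and bars are the mean ± SD of 5 mice. The groups overlap in every panel, and wild-type replicates 1 and 4 are the highest wild-type mice for Prg4, Has1, Tppp3, Dpt, Clec3b and Pdgfra.

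By mean TPM over the 10 mice the order was Prg4, Pi16, Cd55, Tppp3, Thy1, Pdgfra, Dpt, Clec3b, Has1 and Has2. Prg4 exceeded Pi16, and Pi16 exceeded Cd55, in 10 of 10 mice. Thy1 exceeded Pdgfra in 9 of 10, and Clec3b exceeded Has1 in 9 of 10. The neighbours Cd55 and Tppp3, Tppp3 and Thy1, Pdgfra and Dpt, and Dpt and Clec3b were not in a stable order, since the first exceeded the second in 6, 4, 5 and 6 of 10 mice. The spread between mice of 1 genotype was read against genes of like level, up to 250 on each side in rank. Dpt had a within-genotype SD of 1.26 on the log2 scale, at the 98.8th percentile of those genes, Clec3b 1.27 at the 98.4th and Tppp3 0.956 at the 98.0th. Prg4, with an SD of 0.556, was at the 95.5th percentile, and Pi16, with an SD of 0.401, was at the 92.0th. Cd55 was close to ordinary, with an SD of 0.230 at the 58.7th percentile.

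None of the 9 tested genes passed in the comparison of genotypes. In limma's moderated test of all 13841 genes that passed the level filter, the share called at a Benjamini-Hochberg adjusted p under 0.05 was 0.00%, and 0 of the 9 were called. At an unadjusted p under 0.05, 11.6% of all genes were called (1603 genes, 4.28% higher and 7.30% lower in null), and 0 of the 9. The groups did not overlap for 1.94% of all genes, and for 0 of the 9. The log2 difference was above 0 for 7 genes and below 0 for Prg4 and Pdgfra. Its median was 0.30, against -0.05 over all genes. The set was chosen with this contrast known, so nothing is read from these counts. With 1 mouse left out, the difference ranged from 0.31 to 0.95 for Tppp3, from 0.60 to 1.46 for Dpt, from 0.42 to 0.86 for Has1 and from -0.81 to -0.39 for Prg4. The lowest values of Tppp3 and Has1 came without null replicate 3, that of Dpt without wild-type replicate 5, and the value of Prg4 nearest 0 without wild-type replicate 1.

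Bone content was read from Col1a1, the collagen chain that osteoblasts secrete in bulk, but which cells carried it here was not tested. Col1a1 averaged 1522 ± 401 TPM in wild-type and 829 ± 339 in null (log2 difference -0.94, SE 0.272, limma adjusted p = 0.308), and all 5 null mice were under the wild-type mean. It ran from 1165 to 2005 TPM in wild-type and from 501 to 1276 in null, and null replicate 3 was the only null mouse above the lowest wild-type value. With Col1a1 as a covariate the difference of Prg4 changed from -0.63 to 0.14 (SE 0.302) and that of Pdgfra from -0.41 to 0.16 (SE 0.20), so both changed sign. The Dpt difference became 2.78 (SE 0.673), that of Clec3b 2.07 (SE 0.928), that of Tppp3 1.90 (SE 0.532) and that of Has1 1.68 (SE 0.359). Pi16 (0.10, SE 0.320), Thy1 (0.41, SE 0.317) and Cd55 (0.36, SE 0.210) moved by less than their SD within genotype. The same held for Clec3b, whose SD was 1.27. The covariate fit compares genotypes at equal Col1a1, a range that the groups share only in part. Within genotype Col1a1 also varied with Pdgfra, Has1, Prg4 and Dpt, as given below. Whether the fit adjusts for bone alone was not tested. After haemoglobin genes were left out and TPM rescaled, the differences were -0.53 for Prg4, 0.76 for Has1, 1.16 for Dpt and 0.39 for Cd55.

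**Figure D2:**
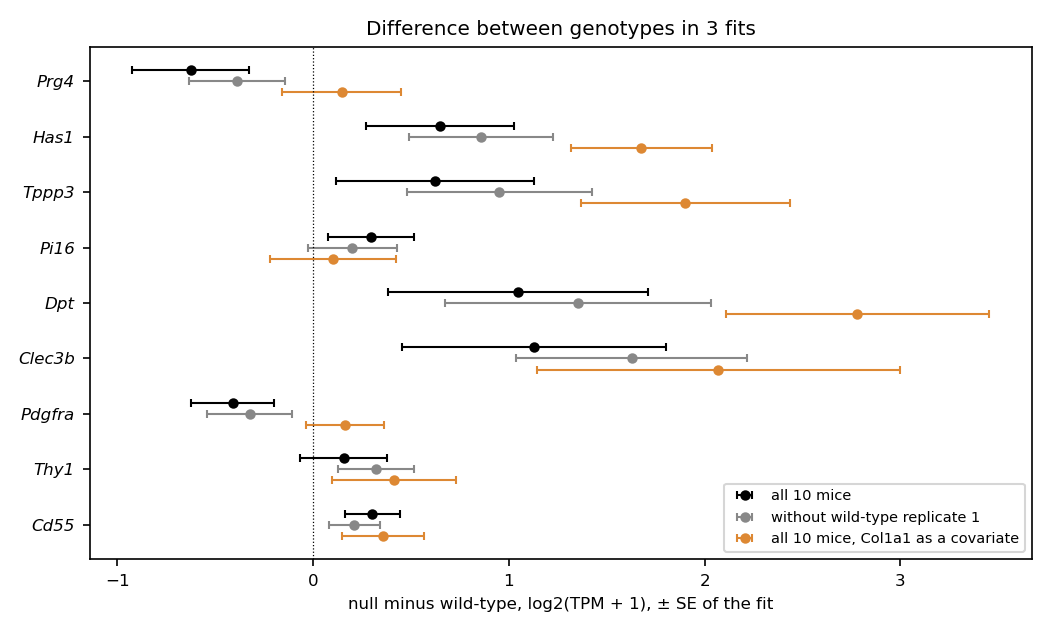
Null minus wild-type difference in log2(TPM + 1), with the SE of the fit, for 9 genes in 3 fits: all 10 mice, all mice but wild-type replicate 1, and all mice with Col1a1 as a covariate. Adding Col1a1 moves Has1, Tppp3, Dpt and Clec3b further above 0 and takes Prg4 and Pdgfra across 0.

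Between mice of the same genotype, Has1, Tppp3, Dpt and Pdgfra varied together, Prg4 and Clec3b did so less firmly, and the other 3 genes passed in no pair. Deviations from the genotype mean were correlated over the 10 mice, with an exact permutation of mice within genotype, two-sided and adjusted over the 36 gene pairs. Of those pairs, 9 passed an adjusted p of 0.05 on Pearson's r, and all 9 lay among the 15 pairs of Prg4, Has1, Tppp3, Dpt, Clec3b and Pdgfra. The 6 pairs of Has1, Tppp3, Dpt and Pdgfra all passed, while Prg4 passed with Has1 alone and Clec3b with Has1 and Tppp3 alone. Has1 and Tppp3 had the highest correlation (r = 0.958, exact permutation p = 0.000417, adjusted 0.007; rho = 0.90, adjusted 0.0517). Has1 correlated with Pdgfra at r = 0.933 and with Dpt at r = 0.915, and Tppp3 with Pdgfra at r = 0.925 and with Dpt at r = 0.892 (permutation, each adjusted p = 0.007). Tppp3 with Clec3b (r = 0.879) and Dpt with Pdgfra (r = 0.825) had an adjusted permutation p of 0.00929. On ranks, only Tppp3 with Dpt passed (rho = 0.95, adjusted permutation p = 0.045). The genes were chosen with the spread between mice known, so these p-values are no independent support for the set.

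The same mice were high for each of these 6 genes. In wild-type, replicates 1 and 4 were the highest mice for all 6 genes, and in null, replicate 3 was the highest for each. Leaving out the 2 mice farthest from the median, the 6 pairs of Has1, Tppp3, Dpt and Pdgfra still had an unadjusted permutation p under 0.05. The 3 pairs with Prg4 or Clec3b that had passed rested on those mice: Prg4 with Has1 went from r = 0.822 to 0.629 (exact permutation p = 0.201 without wild-type replicates 1 and 4). Has1 with Clec3b went from 0.796 to 0.597 (p = 0.151, exact permutation) and Tppp3 with Clec3b to 0.7498 (p = 0.0851, exact permutation) without wild-type replicate 1 and null replicate 3. Pi16, Thy1 and Cd55 passed with no gene of the set. Pi16 had r between -0.34 and 0.28 with the other genes, and Cd55 had r = -0.47 with Prg4 and r = -0.42 with Clec3b.

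**Figure D3:**
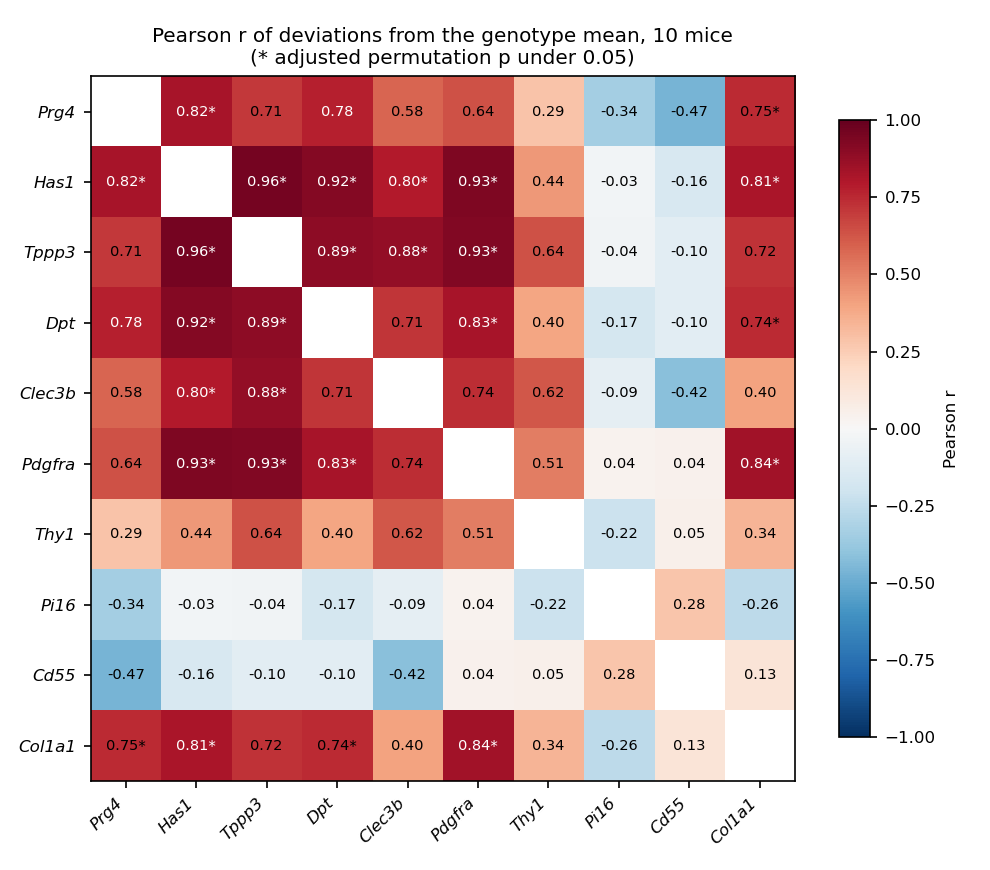
Pearson r of the deviations from the genotype mean in log2(TPM + 1) over 10 mice, for each pair of 9 genes and Col1a1, on a colour scale from -1 to 1. Stars mark an adjusted exact permutation p under 0.05, with genes and Col1a1 adjusted as separate families. All pairs of Has1, Tppp3, Dpt and Pdgfra carry a star, Prg4 (with Has1) and Clec3b (with Has1 and Tppp3) carry fewer, and Thy1, Pi16 and Cd55 carry none.

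Correlations of at least 0.75 with these genes were common in these libraries and not confined to the set. The share of all genes at the higher r of the pairs that passed was not computed. Of the 13840 other genes tested, 14.1% had r of at least 0.75 with Tppp3, 11.8% with Has1, 10.98% with Pdgfra, 9.17% with Clec3b, 5.97% with Dpt and 5.78% with Prg4. The share was 7.51% with Pi16, 4.58% with Thy1 and 0.592% with Cd55. Col1a1 correlated with Pdgfra (r = 0.839; rho = 0.90, adjusted 0.0388), Has1 (r = 0.813), Prg4 (r = 0.747) and Dpt (r = 0.744), each at an adjusted exact permutation p of 0.0344 over 9 relations. Without null replicates 1 and 3, the p was 0.0528 for Pdgfra and for Has1 (exact permutation). Col1a1 and Tppp3 had r = 0.722 (adjusted permutation p = 0.0766), and Clec3b (0.40), Thy1 (0.34), Cd55 (0.13) and Pi16 (-0.26) did not pass either.

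**Figure D4:**
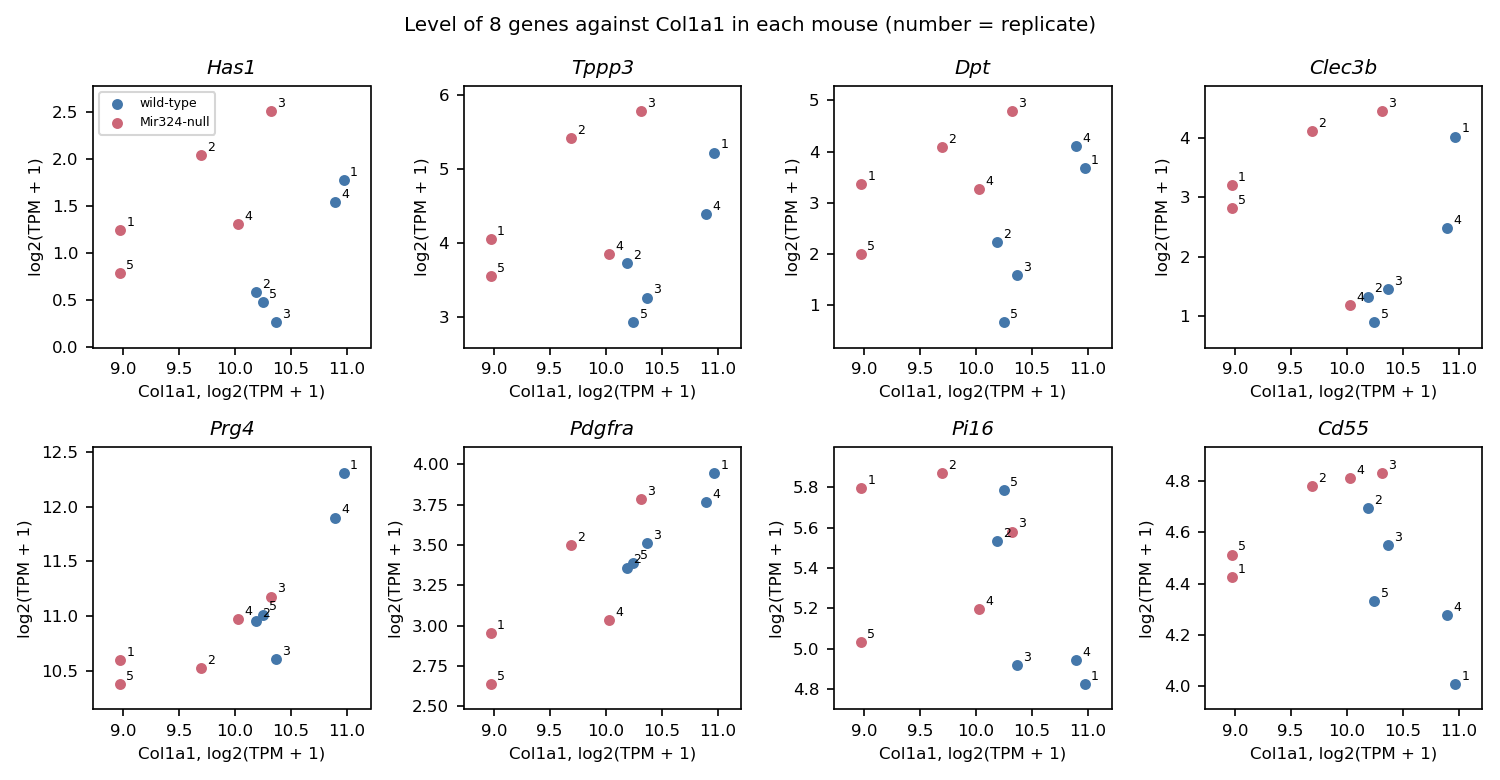
Level of 8 genes against Col1a1, both in log2(TPM + 1), with 1 point per mouse numbered by replicate, wild-type in blue and null in red. Within each genotype Has1, Dpt, Prg4 and Pdgfra tend to be higher in mice with more Col1a1, and for Has1, Tppp3, Dpt and Clec3b the null mice lie to the left of wild-type mice of the same level.

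The mean log2 level of each marker list was compared with each gene in the same way. Over 180 pairs of 9 genes and 20 lists, 46 passed an adjusted exact permutation p of 0.05 on r and 19 on rho, and 35 of the 46 kept an unadjusted p under 0.05 without the 2 farthest mice. Tppp3 passed with 11 lists, Has1 and Pdgfra with 9 each, Dpt with 7, Prg4 with 5 and Clec3b with 4. Lists of fibroblast, tendon, bone, cartilage and vessel wall genes were among them. The share of all tested genes that would pass with these lists was not computed. As the genes were chosen with the spread between mice known, nothing is read from these counts. Has1 had its highest r with the bone markers (r = 0.983, rho = 1, adjusted permutation p = 0.00625). Has1 also followed the other adventitial fibroblast genes (r = 0.961), the general fibroblast matrix genes (r = 0.952) and the other synovial lining genes (r = 0.948). Tppp3 followed the general fibroblast matrix genes (r = 0.961), the other adventitial fibroblast genes (r = 0.950) and the bone markers (r = 0.949). With the tendon and ligament genes Tppp3 had r = 0.940 (rho = 1, adjusted permutation p = 0.00625). Clec3b followed the other adventitial fibroblast genes (r = 0.908, adjusted permutation p = 0.0115). It also passed with the tendon and ligament genes (r = 0.899), the mural cell markers (r = 0.824) and the general fibroblast matrix genes (r = 0.814).

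Of the 3 genes that passed in no pair, Pi16 passed with a single list, the neutrophil markers (r = 0.837, rho = 0.85, adjusted permutation p = 0.0195), at r = 0.764 without its 2 farthest mice (exact permutation p = 0.0226) and r = 0.821 without wild-type replicate 1. With the other adventitial fibroblast genes Pi16 had r = 0.04. Thy1 passed with none, and its highest r was with the T cell markers (r = 0.862, rho = 0.80, adjusted permutation p = 0.051). That r was 0.641 without its 2 farthest mice (exact permutation p = 0.185). Cd55 had r = 0.7496 with the tissue macrophage markers (adjusted permutation p = 0.101) and r = -0.05 with the other synovial lining genes. Which cells carried these transcripts was not tested.

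For each of the 9 genes, the pair of genes closest to it over the 10 mice by r of deviations is given as a description. Closest to Prg4 were P3h4 (r = 0.969) and Fxyd6 (0.964), to Has1 Adgrd1 (0.992) and Cmtm4 (0.984), and to Tppp3 Rcan1 (0.997) and Antxr1 (0.991). Dpt had Bcar3 (0.985) and Plpp1 (0.973), Clec3b had Klc1 (0.968) and Alkbh6 (0.967), and Pdgfra had Nipsnap1 and Dip2c (0.983 each). Pi16 had Smpdl3a (0.984) and Lrrk2 (0.981). Thy1 had Cd247 (0.952), which encodes a chain of the T cell receptor complex, and Commd5 (0.951). Cd55 had 1700047I17Rik2 (0.970) and the immunoglobulin gene segment Igkv12-41 (0.907).

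Promoters are shown for 3 genes that vary together and have an entry, Has1, Dpt and Pdgfra. RefSeq windows on GRCm38.p6, from 250 bases before the annotated start to 50 after it, were found for 5 of the 10 genes. They are chr17:17855139-17855438 (minus strand) for Has1, chr1:164796413-164796712 (plus) for Dpt and chr5:75152001-75152300 (plus) for Pdgfra, with matches to the searched motifs in capitals.
Has1: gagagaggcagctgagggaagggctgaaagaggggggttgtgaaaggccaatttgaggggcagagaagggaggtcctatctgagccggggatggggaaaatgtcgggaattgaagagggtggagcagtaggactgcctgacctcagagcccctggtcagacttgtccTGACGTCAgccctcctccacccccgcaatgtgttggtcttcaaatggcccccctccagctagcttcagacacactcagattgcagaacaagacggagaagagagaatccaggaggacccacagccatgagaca
Dpt: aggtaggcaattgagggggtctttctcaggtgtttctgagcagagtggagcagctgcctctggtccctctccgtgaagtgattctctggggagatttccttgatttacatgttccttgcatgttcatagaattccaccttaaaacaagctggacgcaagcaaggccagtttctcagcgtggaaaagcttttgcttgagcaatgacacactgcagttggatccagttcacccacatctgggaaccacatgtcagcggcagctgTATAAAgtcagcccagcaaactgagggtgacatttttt
Pdgfra: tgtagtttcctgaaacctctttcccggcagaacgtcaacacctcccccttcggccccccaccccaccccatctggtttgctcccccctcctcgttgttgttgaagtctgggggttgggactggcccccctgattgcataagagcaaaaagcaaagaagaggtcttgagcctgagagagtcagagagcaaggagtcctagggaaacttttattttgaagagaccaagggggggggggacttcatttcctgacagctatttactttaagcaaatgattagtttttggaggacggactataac
The motifs, searched on both strands, were the TATA box TATAAA, the cAMP response element TGACGTCA, the AP-1 motif TGANTCA, the TEAD motif GGAATG and the E-box CACGTG. Has1 held a cAMP response element at window bases 168 to 175, a motif found in 1.79% of 32851 windows. Dpt held TATAAA at bases 263 to 268, after the annotated start, as 13.6% of windows do. The Pdgfra, Pi16 and Cd55 windows held none of the 5, and AP-1 was present in 7.81% of all windows, TEAD in 14.7% and the E-box in 7.15%. The 3 windows therefore shared no searched motif. Whether they share other sequence, and why their genes varied together, was not tested.

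The other genes of these pathways were read from lists, in which no gene passed at an adjusted p under 0.05. Counts below are at an unadjusted limma p under 0.05, read against the 4.28% higher and 7.30% lower over all genes. Of 15 tested hyaluronan genes out of 17, 1 was called higher and 1 lower, with a median log2 difference of -0.11 (-0.19 to -0.03 with 1 mouse left out). The lower one was Hapln1, which links hyaluronan to aggrecan (22.0 ± 8.95 TPM in wild-type, 12.8 ± 2.20 in null, log2 difference -0.66, limma adjusted p = 0.3495). The higher one was the hyaluronan receptor Hmmr (26.4 ± 5.05 and 32.2 ± 1.42 TPM, 0.29, limma adjusted p = 0.391). All 9 other synovial lining genes were tested and none was called. Their median was 0.25, with a range from 0.10 without null replicate 2 to 0.48 without null replicate 5. The 2 with the smallest p were the tetraspanin Tspan15 (4.04 ± 1.41 and 5.84 ± 2.08 TPM) and Cd248 (1.78 ± 1.37 and 2.74 ± 1.497 TPM).

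The other fibroblast and receptor lists had medians below 0 as deposited and under each scaling tried. With Col1a1 as a covariate the medians of the adventitial (0.39), general matrix (0.34) and hyaluronan (0.09) lists were above 0, and that of the synovial lining list was 0.87. Of 12 other adventitial genes 0 were called higher and 1 lower, with a median of -0.12 that was 0.04 without wild-type replicate 1. The lower one was the fibrillin gene Fbn1 (7.30 ± 1.32 TPM in wild-type, 4.94 ± 1.73 in null, log2 difference -0.52), and Dpp4, a surface peptidase, was next (8.85 ± 2.23 and 6.58 ± 1.49 TPM). Of 14 general fibroblast matrix genes 1 was called higher and 3 lower, with a median of -0.21 that was -0.01 without wild-type replicate 1. Periostin, Postn, averaged 40.3 ± 18.1 TPM in wild-type and 17.5 ± 6.92 in null (log2 difference -1.12, limma adjusted p = 0.305), and Fbln5 averaged 34.1 ± 4.89 and 25.7 ± 3.12 TPM. Of 6 genes of PDGF ligands and receptors besides Pdgfra, 0 were called higher and 2 lower, with a median of -0.36. They were the ligand Pdgfd (7.44 ± 1.33 and 4.32 ± 1.29 TPM, limma adjusted p = 0.283) and the receptor Pdgfrb (17.3 ± 3.33 and 12.5 ± 2.67 TPM). Pdgfrb is also in the general fibroblast matrix list, as 1 of the 3 called lower there. The 7 tested complement regulators besides Cd55 had a median of -0.13. Of the 5 tendon and ligament genes tested 0 were called, with a median of 0.12 that was -0.01 without null replicate 3 and 0.74 with Col1a1 as a covariate.

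Markers of neighbouring cells were counted in the same way. Of the 10 bone markers 0 were called higher and 9 lower, with a median of -0.90, or -0.19 with Col1a1 as a covariate. Col1a1 is itself 1 of these 10 and of the 9, and as the covariate its own difference is set to 0. The summed level of the list was 5407 to 12907 TPM in wild-type and 3081 to 6146 in null. Of the 7 cartilage markers 5 were lower, with a summed level of 455 to 1394 and 381 to 700 TPM. Their median was -0.68, and 0.04 with Col1a1 as a covariate. All 5 adipocyte markers tested were lower, at a sum of 139 to 238 and 92.1 to 208 TPM, and their median of -0.78 was -0.22 with that covariate. Of 9 erythroid markers 6 were higher and 0 lower, at a sum of 112714 to 198907 and 159317 to 263709 TPM. The T cell list had 1 gene called in each direction, at a sum of 47.1 to 81.3 TPM in wild-type and 60.6 to 77.1 in null. Of 7 endothelial markers 2 were lower, of 6 mural cell markers 2, of 3 Schwann cell markers 1 and of 7 marrow stromal markers 1, with 0 higher in each. The marrow stromal gene called was Adipoq, which is also among the adipocyte markers counted above. None of 8 macrophage, 8 neutrophil and 3 skeletal muscle markers was called. Krt5, Krt14, Krt15 and Dsg3 of the keratinocyte list were listed at 0 in every mouse, and Krt10, the 1 tested, was lower. Apart from the Col1a1 covariate and the correlations above, the part of these cells in the levels of the 10 genes was not tested.

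**Figure D5:**
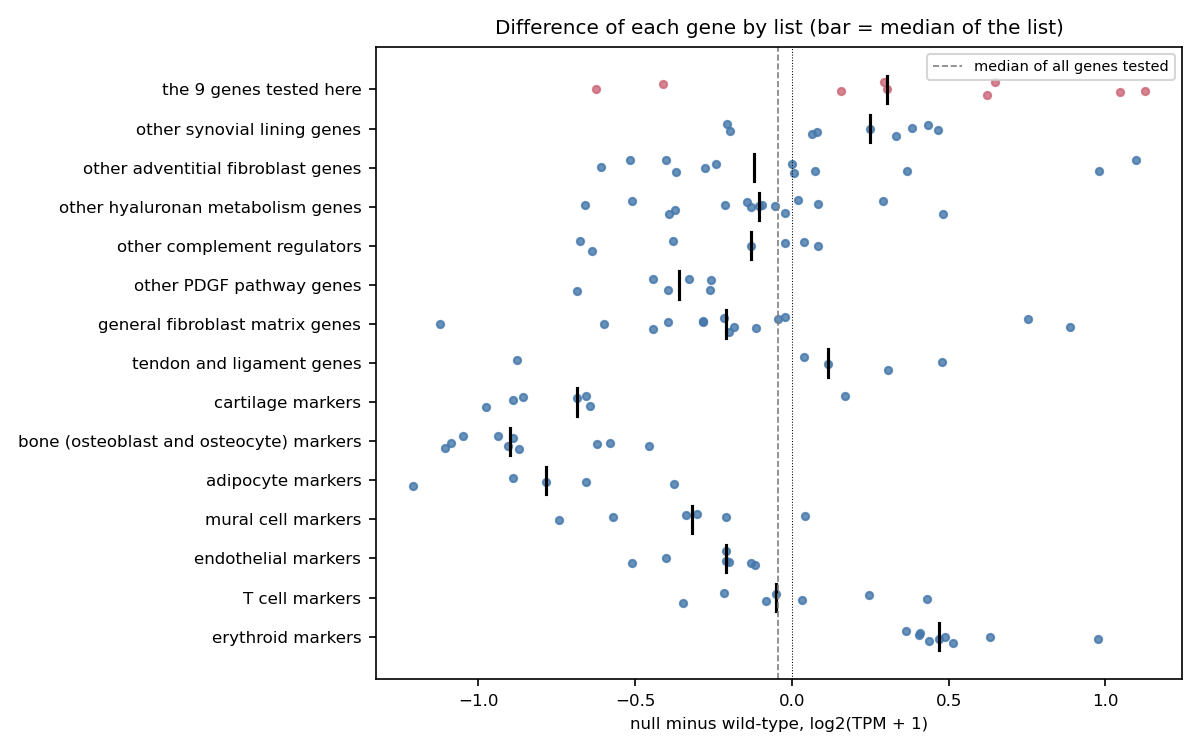
Null minus wild-type difference in log2(TPM + 1) of each tested gene in 14 lists and of the 9 genes described here (red). Bars are list medians, and the dashed line is the median of all genes tested, -0.05. Bone, cartilage and adipocyte markers lie mostly below 0, erythroid markers above 0, and the 9 genes on both sides.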

How the data were processed

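Each library came from the medial knee cartilage cap of 1 mouse. The authors deposited 1 table of TPM values for 116912 mouse Ensembl transcripts, each library summing to 1000000. The submitters' processing notes name kallisto, DESeq2 and the human build GRCh38, with no versions, while the transcript identifiers are mouse. Index, trimming, read layout and strand setting are not given in the sources used here. Identifiers were matched without version to GENCODE M21 (GRCm38), for 115440 transcripts, and TPM was summed per gene. The 1472 unmatched transcripts held 0.275% to 0.356% of TPM. As TPM carries no counts, no count model was used.

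limma 3.58.1 (R 4.3.3) with a mean-variance trend was fitted to log2(TPM + 1) of the 13841 genes that averaged 1 TPM or more, in all 10 mice, two-sided, with Benjamini-Hochberg adjustment. SEs of differences come from that fit. The genes and the 20 lists were chosen with earlier results of these data known, and list correlations were added after the levels were seen. Named were the 10 genes, Col1a1, Has3, in each list the genes past the threshold or else the 2 with the smallest p, and the 2 genes most correlated with each of the 9; markers named in the check of tissue content, the motifs, and Cd55b were named besides. A result that this rule would name is not reported here. Correlations used 14400 exact permutations within genotype (Python 3.11.15). Both tests were checked on simulated data. Replicate numbers were not treated as pairs in the main fit. Same-numbered mice correlated at -0.144 to 0.0564, and the labels do not say whether mice were paired. The limma p-values set a genotype difference against the spread between mice. The permutation p-values test whether 2 levels vary together within genotype. The 18 alternatives changed pseudocount, filter, scaling, covariate, block or the mice used.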

Additional observations from a re-analysis of the deposited data

Results flagged for a closer look

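In each genotype, the highest and lowest TPM value of the 10 genes and Col1a1 was set against the other mice by the gap to its nearest neighbour as a share of the group's range. Of 22 groups, 2 had a mouse that stood apart, and chance alone gives about 1 in 20. Both were wild-type replicate 1, which also stood apart on the first principal component. For Clec3b it lay at 15.3 TPM against 0.852 to 4.57 in the other wild-type mice, a gap of 0.744 of the range. For Has2 it lay at 1.06 TPM against 0.669 to 0.780, a gap of 0.720 of the range. On the log2(TPM + 1) scale used elsewhere the gaps were 0.495 and 0.698 of the range, and neither value stood apart by the same limit.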

How the results depend on the processing

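None of the 9 genes passed an adjusted p of 0.05 under any of the 18 alternatives. The count of all genes at an adjusted p under 0.05 was 0 with all mice and 0 to 1 when 1 mouse was left out, with 1 gene called without wild-type replicate 3, wild-type replicate 4 or null replicate 1. The count at an unadjusted p was 1603 with all mice, 1106 to 1927 when 1 mouse was left out, and 414 with Col1a1 as a covariate. Of those calls 63.1% were lower in null as deposited, 50.4% after median ratio scaling, 51.2% after quantile normalization, 32.2% without haemoglobin genes and 31.6% with Col1a1. With the replicate block the counts were 0 and 1168, and whether the numbers pair mice is not given in the labels. The Col1a1 covariate took the median of the other synovial lining genes from 0.25 to 0.87. That of the bone markers, a list that holds Col1a1 itself, went from -0.90 to -0.19. The Prg4, Has1, Tppp3, Dpt and Pdgfra differences moved to 0.14, 1.68, 1.90, 2.78 and 0.16 with this covariate. No difference of the 9 genes changed sign when 1 mouse was left out. Of the 13 gene relations past the threshold, refitted under 14 settings each, 181 values stayed under an unadjusted p of 0.05 and 1 did not, Col1a1 with Dpt without null replicate 3 (r = 0.683). Of the 46 list relations, 635 values stayed and 9 did not. These settings do not include leaving out the 2 farthest mice. Without those mice, 3 of the 9 gene pairs and 2 of the 4 Col1a1 relations lost an unadjusted permutation p under 0.05. The same held for 11 of the 46 list relations. Depth is unknown, so the counting error of low values such as those of Has1 and Has2 could not be estimated. At a mean of at least 5 TPM, Has1 and the keratinocyte list could not be fitted.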
